A study of Mus musculus with 10 samples.

Results

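Smpd3, Mturn, Parm1, Gprc5a, Bpgm, Ipo5 and Ngdn are 7 genes of unlike function that stood higher with FICZ when each FICZ library was set against the DMSO library of the same replicate number. They are 7 of the 25229 rows of the count table, and all 7 were among the 14251 genes counted highly enough to be tested. The 7 were chosen by their values in this same contrast, so their levels and differences are given here as a description and carry no test. The choice rests on libraries paired by replicate number. A block is a term that removes what libraries of one number share. Among the fits to all libraries, only DESeq2 with the replicate number as a block placed the 7 past the threshold. That fit placed 25 of 18566 genes (0.135%) higher with FICZ at an adjusted p of at most 0.05, and the 7 are among them. Their adjusted p-values in that fit, which come from the paired contrast they were chosen on, ran from 1.5e-06 for Mturn to 0.0404 for Ipo5. Just inside the threshold lay Ipo5 and Mmp10 (0.0404 and 0.0498), and just outside it lay Npffr1 (0.0560). Without the block DESeq2 placed 0 of the 7 past the threshold, where it called 16 of 18940 genes, all higher. EdgeR placed 0 of the 7 past it without a block, where it called 0.0211% of genes higher, and 0 of the 7 with the block, where it called 0.0561%.

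The cells were ASPCs, the stem and precursor cells of fat, sorted as CD45-CD31-Pdgfra+ from perigonadal white adipose tissue of WT mice and grown to confluence without passaging. The 5 FICZ libraries came from cells given 100 nM FICZ for 6 hr, and the 5 DMSO libraries from cells given the vehicle for the same time. FICZ is a tryptophan photoproduct that binds AHR, a receptor that moves to the nucleus and switches on genes such as Cyp1a1. Age, sex and strain of the mice are not given in the labels, and neither labels nor methods say whether a number marks cells of one mouse or culture, so the p-values here measure only the spread between these libraries. The total count per library ran from 38328611 to 50210111, which puts 3 counts at 0.0603 to 0.0787 CPM and covers counting error only. CPM is a gene's reads relative to the size of its library, scaled here by edgeR's TMM factors. Pdgfra, the sorted marker, had 1320 ± 88.3 CPM in DMSO (mean ± SD, n = 5), while Ptprc (CD45) had 0.745 ± 0.614 CPM and Pecam1 (CD31) 1.49 ± 0.122 CPM. A list of 12 hepatocyte genes summed to between 1679 and 9784 CPM in DMSO and between 1801 and 2439 CPM in FICZ, with the highest value in DMSO replicate 5 and the next at 4072 CPM. As a check of the labels, Cyp1a1 averaged 26.8 ± 12.8 CPM under DMSO against 255 ± 92.4 under FICZ. Of 4 known AHR targets (Cyp1a1, Ahrr, Tiparp and Cyp1b1), 3 passed the threshold in edgeR's test without a block and 2 with it. In DESeq2 all 4 passed, both without and with the block.

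The 7 proteins have different known roles. Smpd3 is a neutral sphingomyelinase that splits the membrane lipid sphingomyelin into ceramide and phosphocholine and is known for its role in exosome release and bone mineralisation. Gprc5a is an orphan G protein-coupled receptor that retinoic acid induces, and Parm1 is a mucin-like membrane glycoprotein. Bpgm is the mutase that makes bisphosphoglycerate from a glycolytic intermediate, best known from red blood cells. Ipo5 is an importin that carries proteins, ribosomal proteins among them, through the nuclear pore. Ngdn, or neuroguidin, binds the cap-binding factor Eif4e and is a part of the small subunit processome, which builds the small subunit of the ribosome. Mturn, or maturin, is known as a regulator of neural progenitor differentiation.

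The promoters were read for the core of the AHR response element. GCGTG was searched on both strands of RefSeq windows (GRCm38.p6, the build of mm10) that reach from 250 bases before to 50 bases after a gene's start. A window was found for 5 of the 7 genes, and Smpd3 and Gprc5a had none in the table. Of these 5 genes only Ipo5 held GCGTG, while 32.5% of 27025 promoters in the table do. None of the 5 held the longer form TNGCGTG, found in 5.12% of promoters and overlapping the core. As a comparison, the windows of Ahrr, Tiparp, Cyp1a1 and Cyp1b1 held 3, 1, 1 and 1 cores. The Ipo5 window at chr14:120910944-120911243 (plus strand) is shown because it holds 3 cores, in capitals, while a second window of the gene at chr14:120915597-120915896 holds 0. The 3 cores begin at positions -220, -207 and -177 from the start. The last of them reads as the reverse complement. The Mturn window at chr6:54681374-54681673 (plus strand) holds no core and is shown for a pair of TGACGTCA words, in capitals, the cyclic AMP response element, which begin at positions -72 and -14. TGACGTCA reads the same on both strands, occurs in 1.88% of promoters and was looked for after the sequence had been seen. The window of Plekha8, the gene upstream of Mturn, at chr6:54594861-54595160 (plus strand) is shown because it holds 3 cores, in capitals, 2 of them as TNGCGTG. A second window of Plekha8 at chr6:54602897-54603196 holds 0. Plekha8 was picked after its values had been seen, and windows of other genes next to the 7 are not given. These matches are letters in a window and say nothing of whether AHR or another factor binds there.
Ipo5: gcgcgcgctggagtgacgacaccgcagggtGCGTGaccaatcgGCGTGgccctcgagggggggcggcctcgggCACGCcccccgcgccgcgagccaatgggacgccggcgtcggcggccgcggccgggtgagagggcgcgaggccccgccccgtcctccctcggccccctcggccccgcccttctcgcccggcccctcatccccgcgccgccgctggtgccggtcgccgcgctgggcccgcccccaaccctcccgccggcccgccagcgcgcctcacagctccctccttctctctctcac
Mturn: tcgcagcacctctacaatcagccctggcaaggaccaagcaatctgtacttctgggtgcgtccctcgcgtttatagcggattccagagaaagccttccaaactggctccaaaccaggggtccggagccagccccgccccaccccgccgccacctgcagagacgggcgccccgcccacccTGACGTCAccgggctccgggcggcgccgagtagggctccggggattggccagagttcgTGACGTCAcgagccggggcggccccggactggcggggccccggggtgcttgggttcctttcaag
Plekha8: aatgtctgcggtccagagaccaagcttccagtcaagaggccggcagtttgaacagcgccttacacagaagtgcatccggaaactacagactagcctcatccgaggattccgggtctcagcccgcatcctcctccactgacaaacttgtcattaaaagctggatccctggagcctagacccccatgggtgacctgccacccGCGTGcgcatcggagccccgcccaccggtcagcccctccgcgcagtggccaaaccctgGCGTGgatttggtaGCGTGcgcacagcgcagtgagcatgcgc

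Smpd3 lies on the minus strand of chromosome 8 (106252548 to 106337988 of GRCm38). In DMSO replicates 1 to 5 it had 7.79, 11.4, 11.8, 7.95 and 5.79 CPM, and in FICZ replicates 1 to 5 it had 14.0, 20.7, 18.6, 11.1 and 10.7 CPM. Replicates 2 and 3 were the high libraries in both groups and replicate 5 the lowest, and 2 DMSO libraries exceeded the lowest FICZ library, so the groups overlapped. Within the pairs the log2 CPM in FICZ exceeded that in DMSO by 0.84, 0.86, 0.65, 0.49 and 0.87 in the order of the numbers. The mean of 0.74 ± 0.17 (SD, 5 pairs) is a 1.68-fold difference in edgeR's fit with the block. In edgeR its log2 fold change had a standard error (SE) of 0.24 without the block and 0.09 with it, the largest such ratio among the 7 (2.68). In bulk RNA, more cells that express a gene and more RNA per cell cannot be told apart. Counts ran from 282 to 977 per library. Exons of Prmt7, an arginine methyltransferase gene on the opposite strand, overlap 247 of its 5232 exonic bases, and how strand was treated in counting is not stated. Prmt7 averaged 49.9 ± 3.23 CPM under DMSO against 52.8 ± 3.53 under FICZ, with the log2 fold change at 0.08 (SE 0.08, adjusted p = 0.999 from edgeR without the block). With the block it was 0.08 (SE 0.06, adjusted p = 0.931 in edgeR). Prmt7 was higher with FICZ in 5 of 5 pairs, and its log2 CPM correlated with that of Smpd3 (Pearson r = 0.878 over 10 libraries). Whether reads of Prmt7 entered the count of Smpd3 was not tested.

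Gprc5a lies on chromosome 6 (135065651 to 135084709, plus strand). Its CPM in DMSO replicates 1 to 5 was 7.45, 6.13, 6.53, 5.41 and 3.61, and in FICZ it was 10.8, 8.08, 11.4, 8.68 and 6.72. Replicate 5 was the lowest in both groups, and FICZ replicate 5 lay below DMSO replicate 1, which was the single overlap. The within-pair log2 differences were 0.53, 0.40, 0.80, 0.68 and 0.89, a mean of 0.66 ± 0.20. Counts ran from 176 in DMSO replicate 5 to 459 in FICZ replicate 1.

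Parm1 on chromosome 5 (91517615 to 91626894, plus strand) had 7.37, 8.62, 6.99, 4.17 and 4.80 CPM in DMSO and 9.91, 13.0, 12.8, 9.42 and 8.71 CPM in FICZ, in the order of replicates 1 to 5. Every FICZ library stood above every DMSO library, by 0.02 on the log2 scale at the closest point (FICZ replicate 5 against DMSO replicate 2). Parm1 thus separated the groups, if narrowly, also without pairing, against the description under which the 7 genes were drawn up. The pairs differed by 0.42, 0.59, 0.87, 1.17 and 0.85 on the log2 scale, with a mean of 0.78 ± 0.28, the widest spread of the 7. It had 181 to 429 counts in DMSO libraries and 377 to 613 in FICZ libraries.

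Bpgm, also on chromosome 6 (34476207 to 34505613, plus strand), was the other gene of the 7 whose groups lay apart. Its DMSO libraries had 24.2, 22.7, 20.1, 19.4 and 14.7 CPM and its FICZ libraries 31.1, 31.4, 27.8, 24.4 and 24.4 CPM. The lowest FICZ library exceeded the highest DMSO library by 0.01 on the log2 scale. Groups lay apart in this direction for 2 of the 7 genes and for 50 of the 14251 genes tested (0.351%), and nothing is read from this since the genes were chosen on the same contrast. The log2 differences within pairs 1 to 5 were 0.36, 0.47, 0.47, 0.33 and 0.73 for Bpgm, a mean of 0.47 ± 0.16. Its counts lay between 717 and 1482.

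Ipo5 on chromosome 14 (120911224 to 120947999, plus strand) had 18448 to 30411 counts per library. CPM in DMSO was 484, 519, 522, 432 and 390, and CPM in FICZ was 597, 645, 648, 510 and 497. The order of the replicate numbers was the same in both groups (3, 2, 1, 4, 5 from high to low), and DMSO replicates 2 and 3 exceeded FICZ replicates 4 and 5. Its within-pair log2 differences were 0.30, 0.31, 0.31, 0.24 and 0.35, with the smallest mean and the smallest SD of the 7 genes (0.30 ± 0.04). Of the 50-base words in its transcripts, 4.39% also occur in the pseudogene Gm14857, so a small part of its reads may be shared.

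Ngdn, on chromosome 14 as well (55015454 to 55024137, plus strand), had 35.2, 32.6, 32.4, 27.9 and 20.3 CPM in DMSO and 49.2, 42.0, 37.9, 39.5 and 34.9 CPM in FICZ. FICZ replicate 5 fell just under DMSO replicate 1, by 0.01 on the log2 scale, and no other libraries crossed. The pairs differed by 0.48, 0.36, 0.23, 0.50 and 0.78, a mean of 0.47 ± 0.20. Ngdn had 991 counts in DMSO replicate 5 and at least 1213 in the other DMSO libraries.

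Mturn on chromosome 6 (54681624 to 54703851, plus strand) had 51.9, 70.5, 58.3, 44.5 and 45.7 CPM in DMSO and 92.0, 111, 84.3, 59.8 and 89.1 CPM in FICZ. FICZ replicate 4 was the low library and lay under DMSO replicate 2, and the other FICZ libraries lay above all of DMSO. Within pairs the log2 difference was 0.83, 0.66, 0.53, 0.43 and 0.96, a mean of 0.68 ± 0.22. Exons of the antisense gene Gm28402 overlap 190 of the 5695 exonic bases of Mturn. Counts ran from 1931 to 5240.

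**Figure D1:**
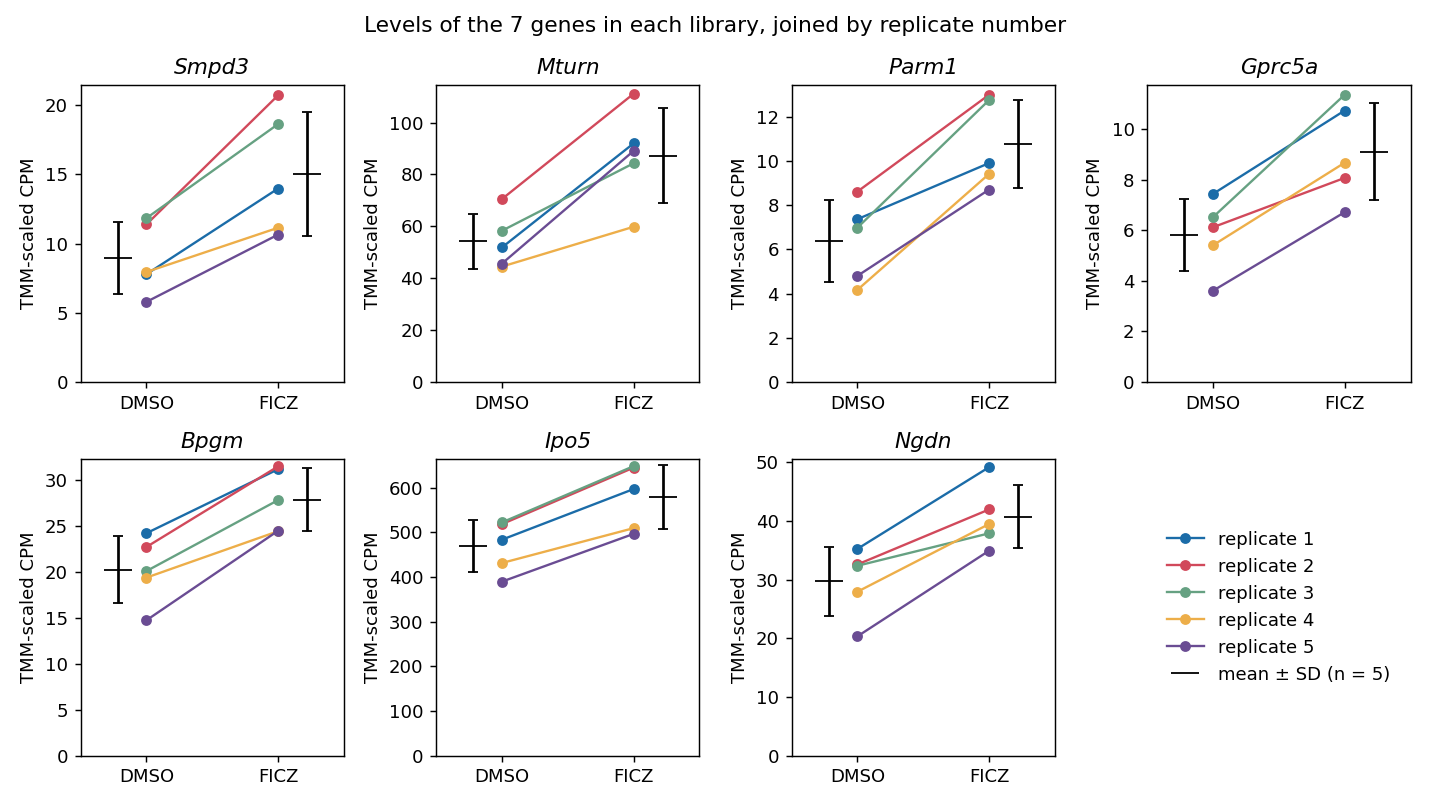
Each panel plots one gene, with TMM-scaled CPM on the y axis from 0 and DMSO and FICZ on the x axis. Lines join libraries of the same replicate number and black marks are mean ± SD (n = 5). All lines rise, while the ranges of the groups overlap for 5 genes and lie apart for Parm1 and Bpgm.

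Each of the 7 genes was thus higher under FICZ in 5 of 5 pairs, as were 615 of the 14251 genes tested (4.32%). The size of the difference did not follow one order of the numbers. Pair 5 gave the largest difference for Smpd3, Mturn, Gprc5a, Bpgm, Ipo5 and Ngdn, and pair 4 gave the largest for Parm1 and the smallest for Smpd3, Mturn, Bpgm and Ipo5. Among the known targets, the within-pair log2 differences ran from 3.05 to 3.63 for Cyp1a1 and from 1.47 to 2.12 for Ahrr, all above those of the 7 genes (0.23 to 1.17). Those of Tiparp (0.52 to 1.09) and Cyp1b1 (0.40 to 0.77) lay within the range of the 7 genes. In Tiparp and Cyp1b1 pair 5 gave the smallest difference.

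**Figure D2:**
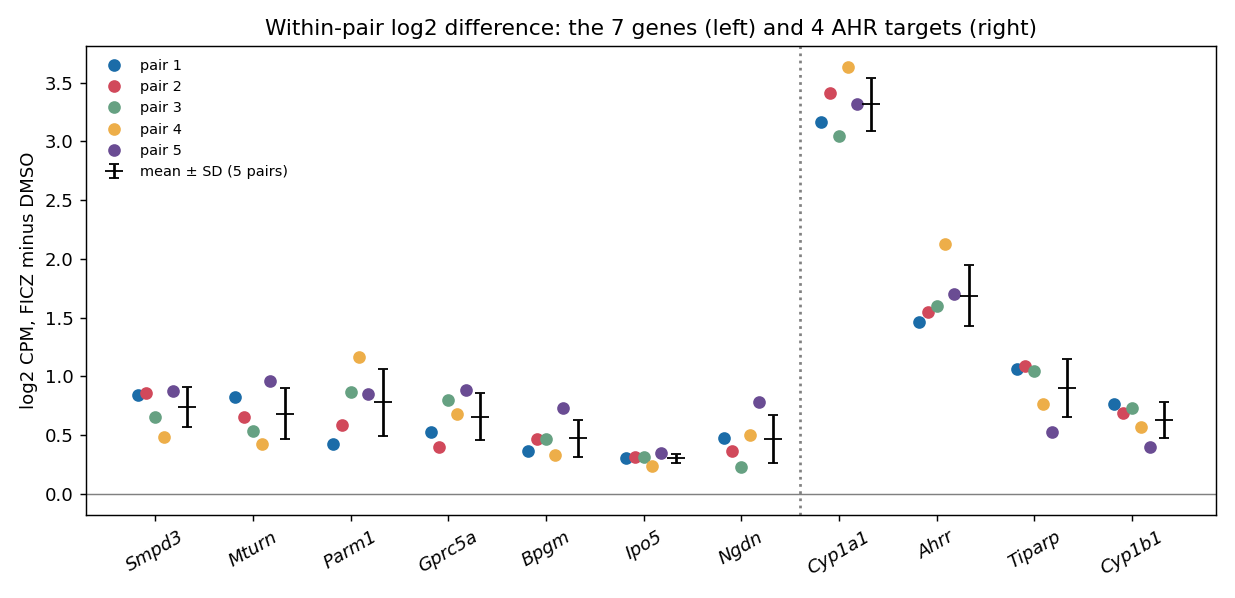
The y axis gives the difference in log2 CPM between FICZ and DMSO within each same-numbered pair, for the 7 genes on the left and 4 AHR targets on the right. Coloured points are the 5 pairs and black marks are mean ± SD. The 5 points of Ipo5 lie between 0.24 and 0.35, the tightest of all genes shown.

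How much of each gene's variation went with the replicate number was set out as shares of the sum of squares of log2 CPM over the 10 libraries. The number took 49.5% in Smpd3, 53.1% in Ipo5, 44.4% in Gprc5a, 41.4% in Ngdn, 38.6% in Bpgm, 34.4% in Parm1 and 33.4% in Mturn. Treatment took between 46.3% in Ipo5 and 61.6% in Mturn. What neither accounted for was 0.64% in Ipo5, 2.02% in Smpd3 and at most 7.68%, in Ngdn. Over all genes tested the medians were 58.1% for the number, 4.35% for treatment and 32.0% for the rest. In Cyp1a1, Ahrr, Tiparp and Cyp1b1 treatment took between 85.5% and 91.9% and the number between 6.39% and 11.5%. With the block, edgeR's standard error was smaller by a factor of 1.66 (Ngdn) to 2.68 (Smpd3) for the 7 genes, against a median of 1.19 over all genes. The factor was 3.80 for Cyp1a1, above all of the 7, and 1.21 to 1.47 for the other 3 targets. These shares describe the same 10 values that chose the genes.

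**Figure D3:**
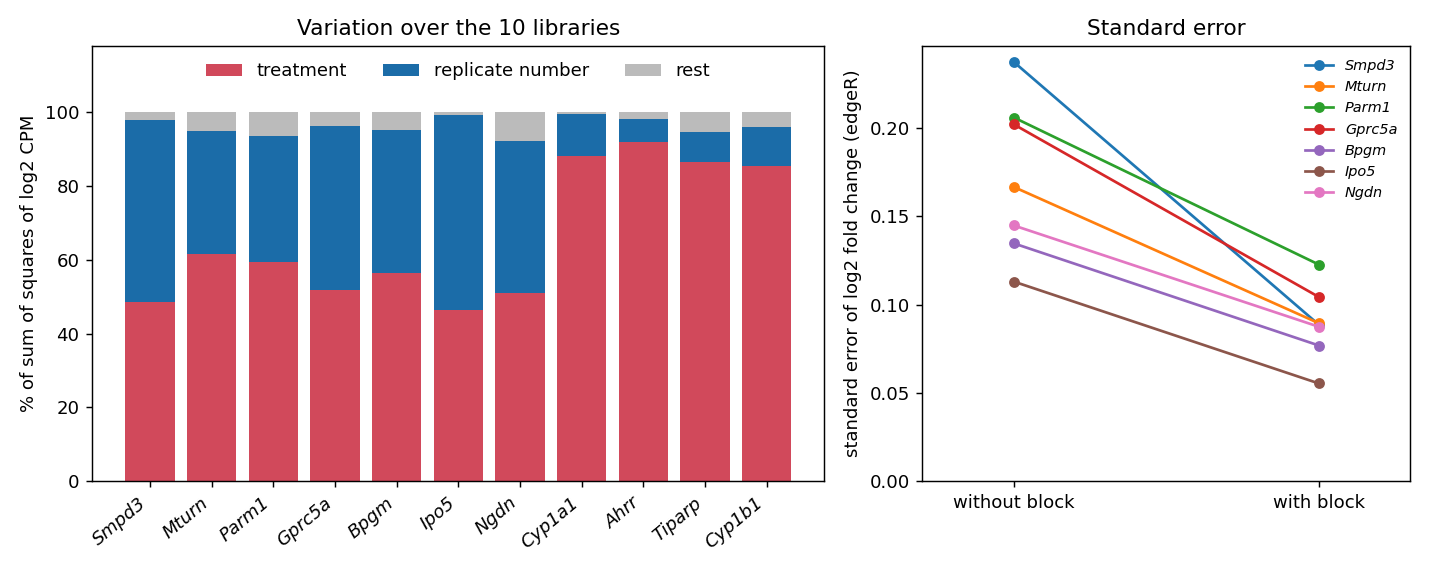
The left panel stacks, for each gene, the percent of the sum of squares of log2 CPM over 10 libraries that goes with treatment, replicate number and the rest. The right panel gives the SE of each log2 fold change in edgeR without and with the replicate block, which is smaller with the block for each of the 7 genes, most for Smpd3 (0.24 to 0.09).

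Most of the 7 genes were low in the same libraries. DMSO replicate 5 was the lowest of its group for 5 of the 7 and FICZ replicate 5 for 5 of the 7. How often these libraries were lowest over all genes tested is not given, so nothing particular to the 7 is read from this. DMSO replicate 5 is also the library with the highest hepatocyte sum, and its part in the differences was not tested. Without DMSO replicate 5 the log2 fold changes in edgeR without the block were 0.62 for Smpd3, 0.63 for Mturn, 0.66 for Parm1, 0.52 for Gprc5a, 0.37 for Bpgm, 0.24 for Ipo5 and 0.35 for Ngdn. With all libraries they were 0.75, 0.69, 0.75, 0.65, 0.46, 0.30 and 0.45 in the same order. Without replicate 5 in either group, and with the block, they ran from 0.29 for Ipo5 to 0.75 for Parm1, and 4 of the 7 genes had groups that lay apart, as did 168 of the 14251 genes tested (1.18%) with these 8 libraries.

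Levels in DMSO were compared per kilobase of exon, since longer genes collect more reads. Ipo5 was highest at 78.2 ± 9.58 CPM per kilobase, followed by Ngdn (20.0 ± 3.94), Mturn (9.51 ± 1.88), Bpgm (5.63 ± 1.01), Gprc5a (2.80 ± 0.691), Smpd3 (1.71 ± 0.493) and Parm1 (1.26 ± 0.366). Neighbours in this order were apart by more than their SDs down to Bpgm. Gprc5a and Smpd3, and Smpd3 and Parm1, overlapped within 1 SD. In FICZ the order was the same, from 96.6 ± 12.1 for Ipo5 to 2.12 ± 0.392 for Parm1.

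The genes whose 10 log2 CPM values ran most like those of the 7 were looked up among all genes tested. Such a likeness is partly the treatment difference that chose the genes, and the points share libraries, depth and replicate numbers. Smpd3 and Ipo5 were each other's closest match (Pearson r = 0.972 over 10 libraries), with Gldn, the adhesion gene gliomedin, next for both (0.962 and 0.970). Bpgm ran closest to Ngdn (0.958) and then to Arhgef28 (0.926), and Ngdn ran closest to Mlkl, the effector of necroptosis (0.971), and then to Bpgm. Gprc5a was also most like Mlkl (0.950), followed by the aldo-keto reductase Akr1b8 (0.949). Parm1 ran with Fgf7 (0.942), a growth factor of stromal cells, and Dclre1a (0.934). Mturn had the highest match of all, with Plekha8 (0.985), followed by Hspa4l, a heat shock protein gene (0.961). Among the 7 themselves r lay between 0.656 (Gprc5a and Mturn) and 0.972.

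Plekha8 is the next gene upstream of Mturn, on the same strand of chromosome 6 (54595111 to 54645839) and 35784 bases away with no annotated gene in between. It encodes a Golgi protein that transfers glucosylceramide. Plekha8 had 27.0 ± 2.03 CPM in DMSO, from 24.7 to 29.8, and 34.2 ± 2.80 CPM in FICZ, from 30.3 to 38.1 (n = 5 each). Each FICZ library was above each DMSO library, as for 50 of the 14251 genes tested (0.351%). Plekha8 came up through its likeness to Mturn, which was chosen on this contrast. A difference in the same direction was thus largely fixed in advance, and nothing is read from it. Its log2 fold change was 0.34 (SE 0.08, adjusted p = 0.999) in edgeR without the block and 0.34 (SE 0.06, adjusted p = 0.425) with it, so the difference did not pass the threshold over all genes. DESeq2 with the block gave an adjusted p of 0.0971.

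Because of Plekha8 the nearest tested genes on each side of all 7, and those overlapping them, were examined, a search made after the values were seen. None of these 15 neighbours passed the threshold in edgeR or DESeq2, with or without the block. At an unadjusted p of at most 0.05 in edgeR there was 1, both without and with the block. It was Plekha8, the gene that had prompted the search. The other 14 had log2 fold changes with the block between -0.16 and 0.19. Mturn's downstream neighbour Znrf2, a ubiquitin ligase gene on the same strand, averaged 35.5 ± 5.78 CPM under DMSO against 39.7 ± 8.88 under FICZ, a difference within the spread between libraries.

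**Figure D4:**
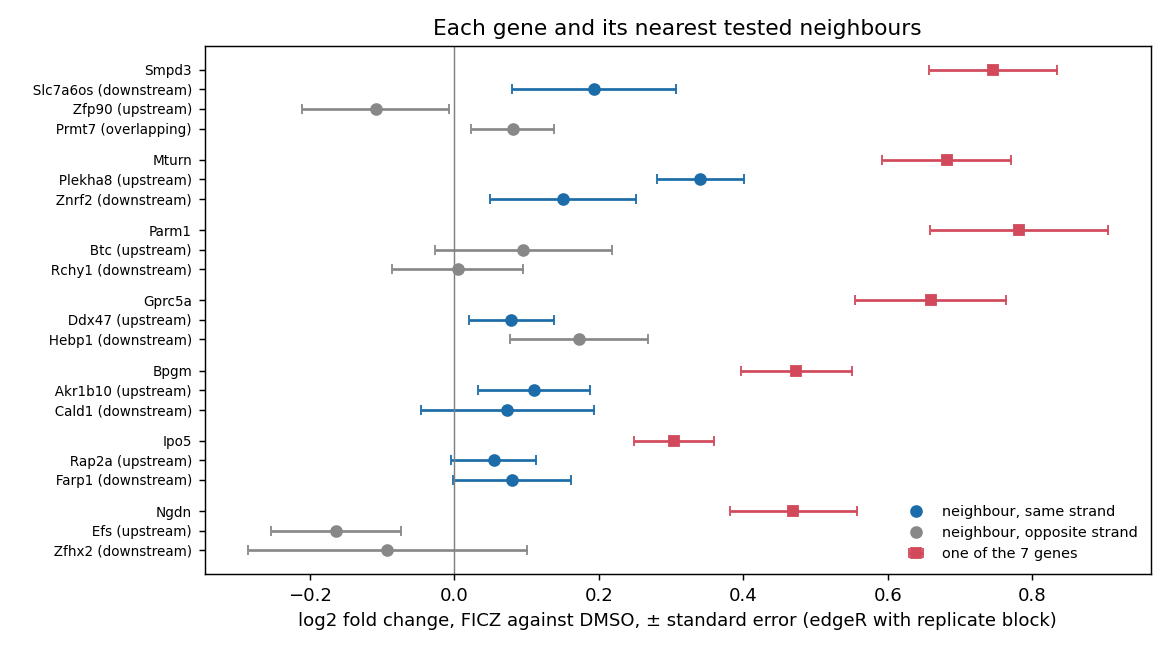
The x axis gives the log2 fold change of FICZ against DMSO with its standard error, from edgeR with the replicate block, for each of the 7 genes (red squares) and its nearest tested neighbours (blue on the same strand, grey on the opposite strand). Plekha8 lies at 0.34 and the other 14 neighbours between -0.16 and 0.19.

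The other genes of the pathways to which the 7 belong were tested with edgeR. Sphingomyelin and ceramide metabolism was a list of 41 genes, of which 35 were tested. None passed the threshold in edgeR or DESeq2, with or without the block, and at an unadjusted p of at most 0.05 in edgeR there were 1 higher and 0 lower. Over all genes tested, that unadjusted p was reached by 1.33% higher and 3.49% lower without the block, and by 2.48% higher and 2.17% lower with it. The median log2 fold change of the 35 was -0.02, beside 0.01 over all genes tested, and it turned to 0.05 without DMSO replicate 5. Of the other sphingomyelinases, Smpd1, the acid form, averaged 62.5 ± 8.48 CPM under DMSO against 59.9 ± 4.44 under FICZ. Smpd2 had 16.9 ± 3.12 and 15.4 ± 2.04 CPM, and Smpd4 had 48.8 ± 5.88 and 45.8 ± 0.847 CPM. The means of these 3 were lower under FICZ, by log2 fold changes of -0.06, -0.14 and -0.09 with SEs of 0.10, 0.14 and 0.09 (adjusted p = 0.999 for each in edgeR without the block). Smpd5 was counted at only 16 to 34 reads per library and had 0.582 ± 0.144 and 0.586 ± 0.130 CPM, a difference well within the spread. The smallest p among higher genes was that of Smpdl3b, a phosphodiesterase related to the acid sphingomyelinase, at 5.46 ± 0.442 CPM under DMSO against 6.75 ± 1.02 under FICZ (log2 fold change 0.30, SE 0.13, adjusted p = 0.999 in edgeR without the block). Among lower genes it was Sphk2, a sphingosine kinase (log2 fold change -0.08, SE 0.07).

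Gprc5a was set beside its family and the genes of retinoic acid, a list of 21 genes with 16 tested. Of these, 0 passed in edgeR or DESeq2 with or without the block, and 0 had an unadjusted p of at most 0.05 in edgeR. The median log2 fold change was -0.10. Gprc5b, a close relative, averaged 96.7 ± 7.17 CPM under DMSO against 87.3 ± 3.75 under FICZ (log2 fold change -0.15, SE 0.07, adjusted p = 0.999 in edgeR without the block). Gprc5c had 2.74 ± 1.93 CPM and 1.55 ± 0.231 CPM, which put the log2 fold change at -0.82 (SE 0.41, adjusted p = 0.999 in edgeR without the block). Its DMSO libraries ran from 0.924 to 5.83 CPM, and its lowest count was 46. It was higher with FICZ in 2 of 5 pairs, and with the block its log2 fold change was -0.58 (SE 0.37). Rarg, a retinoic acid receptor, had the smallest p among the higher genes, at 50.4 ± 4.65 and 54.2 ± 6.71 CPM.

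Around Bpgm, 19 of 20 glycolytic genes were tested, and again 0 passed in these 4 fits and 0 had an unadjusted p of at most 0.05 in edgeR. Their median log2 fold change was 0.04, and -0.01 without DMSO replicate 5. Pgam1, the phosphoglycerate mutase that shares its fold with Bpgm, averaged 78.7 ± 3.22 CPM under DMSO against 81.2 ± 9.48 under FICZ. Minpp1, a phosphatase that can break down bisphosphoglycerate, had 65.9 ± 3.51 and 67.7 ± 4.65 CPM. Differences of both were within the spread between libraries. Gpi1 had the smallest p among higher genes (log2 fold change 0.08, SE 0.07) and Aldoc among lower ones (-0.55, SE 0.41).

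Of 28 nuclear transport receptors and Ran factors, 27 were tested, and 0 passed in the 4 fits, with 0 at an unadjusted p of at most 0.05 in edgeR. The median log2 fold change was 0.03, and 20 of the 27 had a higher mean in FICZ. With 1 library left out this ran from 13 of 27 with a median of -0.00138 (without FICZ replicate 3) to 24 of 27 (without DMSO replicate 2). It was 14 of 27 without DMSO replicate 4, and 16 of 27 in the fit that took account of Alb, the albumin gene of liver. Kpnb1, the main importin beta, averaged 959 ± 179 CPM under DMSO against 1050 ± 83.6 under FICZ and was higher in 5 of 5 pairs. Ipo7 had 362 ± 92.4 and 392 ± 92.0 CPM and was higher with FICZ in all 5 pairs, with the log2 fold change at 0.12 (SE 0.06, adjusted p = 0.929 from edgeR with the block). Ipo4 had 216 ± 13.9 and 221 ± 19.2 CPM. Ipo13 had the smallest p among higher genes (log2 fold change 0.13, SE 0.09) and Nutf2 among lower ones (-0.09, SE 0.10).

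Small subunit processome genes, the group Ngdn works with, came to 47 tested of 49 listed. None passed the threshold in the 4 fits, and at an unadjusted p of at most 0.05 there were 0 in edgeR without the block and 9, all higher, with it, where 2.48% of all genes were. The mean was higher in FICZ for 44 of the 47, with a median log2 fold change of 0.12. Without DMSO replicate 5, the library with the lowest sum of these genes (1905 CPM), the median was 0.03 and 31 of 47 had a higher mean, and in the fit with Alb they were -0.00395 and 23 of 47. These fits had no block. With the block the median was 0.16 with 44 of 47 higher, and 0.07 with 40 of 47 higher without replicate 5 of both groups. Krr1, a processome factor, averaged 36.5 ± 5.81 CPM under DMSO against 41.5 ± 3.12 under FICZ (log2 fold change 0.19, SE 0.11, adjusted p = 0.999 in edgeR without the block), and Imp3 had the smallest p among lower genes (-0.06, SE 0.10). Of 10 translation factors bound by or related to neuroguidin's partners, 10 were tested and 0 passed in the 4 fits, with 0 at an unadjusted p of at most 0.05 in edgeR. Their median log2 fold change was -0.01, and 0.02 without DMSO replicate 3. Eif4e averaged 123 ± 11.1 CPM under DMSO against 130 ± 14.8 under FICZ, and the smallest p-values belonged to Eif4e3 (0.10, SE 0.09) and Eif4ebp3 (-0.25, SE 0.17).

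Among 11 mucin-type membrane glycoproteins set beside Parm1, 6 were tested and 0 passed in the 4 fits, with 0 at an unadjusted p of at most 0.05 in edgeR without the block and 2, Emcn and Cd34, both lower, with it, where 2.17% of all genes were. Their median log2 fold change was -0.13 with 1 of 6 higher, and -0.04 with 3 of 6 higher without DMSO replicate 5. Cd164, a sialomucin, averaged 466 ± 161 CPM under DMSO against 420 ± 18.5 under FICZ. Podxl had 5.59 ± 2.66 and 5.32 ± 2.14 CPM. Pdpn had the smallest p among higher genes (log2 fold change 0.14, SE 0.10) and Cd34, which also marks ASPCs, among lower ones (-0.18, SE 0.08), being lower with FICZ in all 5 pairs.

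Markers of other cells were summed for each library beside these results. The 9 macrophage genes summed to 24.8 to 60.7 CPM in DMSO, highest in replicate 5, and to 24.2 to 37.3 CPM in FICZ. The 6 endothelial genes summed to 65.4 to 87.9 and 69.9 to 85.5 CPM, the 4 mesothelial genes to 62.1 to 84.1 and 65.1 to 81.0 CPM, the 4 mural genes to 38.4 to 83.3 and 48.5 to 77.2 CPM, and the adipocyte genes to 6.03 to 21.1 and 4.16 to 21.9 CPM. The 10 ASPC genes summed to 6159 to 8552 CPM in DMSO and 5653 to 7933 CPM in FICZ. None of these genes passed the threshold in the 4 fits. Of the 9 macrophage genes 3 were lower at an unadjusted p of at most 0.05 in edgeR without the block, against 3.49% of all genes. With the block 0 of the 9 were, against 2.17% of all genes. Their median log2 fold change without the block was -1.06, and -0.33 without DMSO replicate 5. Of the 12 hepatocyte genes 11 were lower at that p without the block and 0 with it. The adipocyte gene Cidec was lower in both fits (log2 fold change -1.33 without and -1.07 with the block). With the block, 2 of the 6 endothelial genes (Pecam1 and Emcn) and 1 of the 10 ASPC genes (Cd34) were lower and 1 of the 4 mesothelial genes (Upk3b) was higher at that p. The part of these cells in the differences of the 7 genes was not tested.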

How the data were processed

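RNA of cultured ASPCs was sequenced in 10 libraries (5 DMSO, 5 FICZ) with numbers from 1 to 5 in both groups. The submitters' processing notes state that the authors aligned reads with STAR 2.7.7 to mm10. The table the authors deposited holds unnormalized read counts for each gene symbol, which were checked to be whole. The counting program, annotation and strand setting are not given in the sources used here.

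Counts were tested with edgeR 4.0.16 (quasi-likelihood, robust, TMM, filter by expression) in R 4.3.3, with Benjamini-Hochberg adjustment over the 14251 genes tested and a threshold of 0.05. No block was used in the first place, since the methods state none. The replicate number entered as a block in an alternative, as did DESeq2 1.42.0 with and without it. Deviations from the group mean correlated in every same-numbered pair, from 0.15 to 0.32, against a mean of -0.06 between different numbers. Deviations cancel out within a group, so the mean between different numbers is largely tied to that of the same numbers. It is no separate baseline. The highest value between different numbers was 0.37, and 3 of 5 libraries in each group correlated best with their own number. The pairing is thus a hint from the data, not from the labels. Log2 CPM carried a prior count of 2. Gene models were GENCODE M21 for GRCm38, and sequences came from RefSeq.

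The 7 genes, the pathway lists and the tests were chosen with earlier results of these data known. Named genes were the 7, 4 AHR targets, the closest family members in each list, the gene with the smallest p in each direction, and the 2 genes most like each of the 7. Mmp10, Npffr1 and the neighbouring genes were named after their values were seen. EdgeR was tested on simulated data of the same 14251 genes and recovered 78.5% of 200 altered genes without the block and 83% with it (97.3% and 98.7% of those altered at least 2-fold), with false shares of 2.48% and 8.79%. The simulated counts had a single dispersion for all genes, no library set apart, and changes mostly larger than those of the 7 genes. These shares therefore do not carry over to the real libraries. There Gldn, at a log2 fold change of 1.06, had an adjusted p of 0.999 in edgeR without the block.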

Additional observations from a re-analysis of the deposited data

Results flagged for a closer look

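Among 33 genes with values, 66 groups of 5 libraries were examined, and in 4 of them a single library stood off from the rest. Chance alone would give about 3.3 such groups, and none of the 4 concerned the 7 genes. The distance to the next library, divided by the group's range in log2 CPM, was 0.857 for Ahrr and 0.844 for Eif4e in DMSO replicate 4, the lowest of its group for both. It was 0.785 for Pgam1 in FICZ replicate 5, the lowest, and 0.799 for Cd164 in DMSO replicate 5, the highest.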

How the results depend on the processing

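The log2 fold change of each of the 7 genes kept its sign and moved by less than the SD between libraries in all 27 other fits. The 7 were chosen on this contrast and were higher in all 5 pairs. A kept sign was thus close to fixed in advance and is no support for the differences. The SD is also a wide measure: for Smpd3 it was 0.43 in each group, while its log2 fold change ran from 0.56 to 0.87. Their median, 0.65 in edgeR without a block, lay between 0.52 and 0.69 when 1 library was left out. The number of genes past the threshold was 3 in edgeR, 8 with the replicate block, 16 in DESeq2, 26 in DESeq2 with the replicate block, and 1 to 4 when 1 library was left out. When 1 pair was left out it was 1 to 8 in edgeR with the replicate block (1 without replicate 1, 8 without replicate 5). DESeq2 with the replicate block and 1 pair left out was a setting added after the data were seen. There the number was 25, 25, 45, 68 and 76 without replicates 1 to 5. Genes with an adjusted p numbered 13645, 15067, 13626, 16511 and 14375, and 23, 24, 31, 53 and 64 were past the threshold and higher. In the same order, 5, 4, 6, 7 and 7 of the 7 genes were past the threshold. Ipo5 was not past it without replicates 1, 2 and 3, Ngdn without 1 and 2, and Bpgm without 2. These are subsets of the libraries on which the 7 were chosen, so these counts of the 7 are no support for the differences. Of the 4 AHR targets, 3 passed in edgeR, 1 to 4 with 1 library left out, 1 in a fit with Alb as covariate, and 1 to 4 in edgeR with the replicate block and 1 pair left out (1 without replicate 1). In DESeq2 all 4 passed without and with the block, and also with the block whenever 1 pair was left out. No pathway gene passed in any fit. Groups lay apart for 2 of the 7 genes, and for 4 without replicate 5 of both groups, where 1.18% of all genes tested did. The cause of these shifts was not tested.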
